A study of Mus musculus with 43 samples.

Results

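Lungs of mice given an isotype control antibody during 15 weeks of house dust mite (HDM) were compared with lungs after 4 weeks of HDM without antibody. The members are the 4 isotype libraries and the 10 libraries of 4 weeks, 14 of the 43 libraries in all, chosen by their labels for agent and time. The question was which of the genes that differ between 15 and 4 weeks without antibody also differ when the 15-week lungs come from isotype-treated mice, with the range of the sample numbers as a covariate. RNA was measured by strand-specific mRNA sequencing of whole lung, as raw counts per gene. Every mouse carried the genotype Il33hu/hu, a humanised Il33 gene, on a background labelled C57BL/6NTac (75%) / 129S6SvEvTac (25%). The other groups used here are 7 libraries after 15 weeks of HDM without antibody, 7 saline libraries and 15 with an anti-IL-33 antibody at 15 weeks. The saline and anti-IL-33 libraries entered the joint fit of all 43 libraries and the plots, but no comparison was made with them. All HDM groups share the allergen and the humanised gene. The isotype and 4-week groups differ in length of exposure and in the antibody, and perhaps in age, which the labels do not give, and these cannot be told apart in this comparison. Neither the doses nor the species of the antibody are stated in the labels. The labels do not state that each library is a separate animal, so p-values measure the spread between these samples.

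HDM is an airway allergen that acts on the epithelium, which releases alarmins such as IL-33. Type 2 lymphocytes answer with IL-4, IL-5 and IL-13, which draw in eosinophils, turn macrophages to an alternatively activated state and drive mucus production. Long exposure can add a neutrophilic component, in which IL-1, TNF and CXC chemokines recruit neutrophils and cytokines induce acute phase proteins, a set of secreted plasma proteins made mainly by the liver and also by inflamed epithelium. An isotype control is an antibody of the same class as a therapeutic antibody that does not bind its target.

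Total counts were 8354316 to 10243469 in the isotype libraries and 4795214 to 11959383 at 4 weeks. Markers of lung cells were present in all 14 libraries: the surfactant gene Sftpc ranged from 9680 to 28900 CPM (counts per mega-count of the library's scaled total) and the club cell gene Scgb1a1 from 4640 to 15900 CPM. The sample numbers fall in 2 ranges whose meaning the labels do not give. Isotype replicates 1 to 3 and 4-week replicates 1 to 4 are in number range 1, and isotype replicate 4 and 4-week replicates 5 to 10 in number range 2. 4-week replicate 3 stood apart, at 82.7 on the second principal component against 5.33 to 28.6 for the other 9, and it held 8820 CPM of the globin gene Hba-a1 against at most 1061 CPM in those. 15-week replicate 1 without antibody had the highest value of its group on the first component, at 77.8 against 12.4 to 64.1 for the other 6, and a TMM scaling factor of 0.694 against 0.878 to 0.994. The main totals of calls are given with and without these libraries, and counts by direction, by fold change and by gene list only with them.

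The lungs of isotype-treated mice at 15 weeks differed from those at 4 weeks in 370 genes, 2.37% of the 15598 tested. Of these, 246 were higher (1.58%) and 124 lower (0.795%). A gene is called, and said to rise or fall, when its Benjamini-Hochberg adjusted p from edgeR's quasi-likelihood test was under 0.05. The largest rises among called genes that averaged 2 CPM or more in their higher group included the fibrinogen genes Fga and Fgg, Nfasc and Acod1. Orm2, Card14, Orm3 and Bmp8a were also among them, each called in 3 of the 4 sets that leave out an isotype library. The calls of Orm3 and Bmp8a ended without isotype replicate 4. The largest falls included the chemokine gene Ccl24, its receptor gene Ccr3, the chitinase gene Chia1 and Ctnnd2. A change of at least 2-fold was called for 179 genes (1.15%), 136 higher (0.872%) and 43 lower (0.276%). The 2 groups did not overlap in any library for 337 genes higher (2.16%) and 157 lower (1.01%). The count depends on which libraries enter: it was 97 without isotype replicate 4, 194 to 268 without each of the other 3 in turn, and 852 without 4-week replicate 3 and 15-week replicate 1. Within number range 1 alone (3 isotype against 4 libraries) 1 gene was called, Ctnnd2, and within range 2 alone (1 isotype against 6 libraries) 192 were. Of the 370 genes, 368 could be tested in range 1 and all 368 had the same direction there, as did 367 of 369 in range 2. The 370 were called on these same libraries, so a common direction is partly built in and is no separate support. In range 2 the spread around the lone isotype library is assumed to be that of the other groups. Of the 75 called genes named here, 55, 50, 52 and 32 were called when isotype replicate 1, 2, 3 or 4 was left out. Those called in all 4 of these sets were Acod1, Batf3, Ccl24, Chia1, Clec4e, Csf3r, Ctnnd2, Fga, Fgg, Fgl1, Gata3, Gc, H2-Oa, Hp, Hpgds, Inhbb, Itih4, Kng2, Nfasc, Nlrp3, Pdcd1lg2, Ptgs1, Socs3, Tlr2 and Tnf, so that the call of every other gene named as rising or falling with isotype was lost without at least 1 isotype library.

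**Figure D1:**
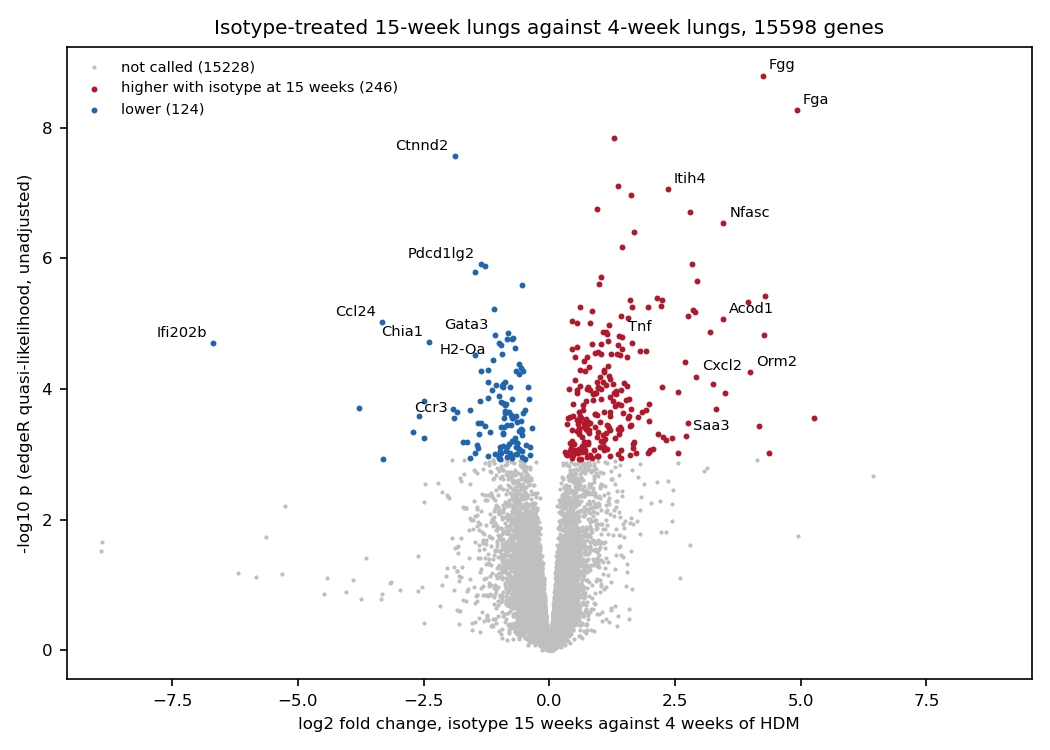
Each point is 1 of 15598 genes, with the log2 fold change of isotype-treated 15-week lungs against 4-week lungs on the x axis and the -log10 of the unadjusted p on the y axis. The 246 genes called higher are red and the 124 called lower are blue, and the fibrinogen genes Fga and Fgg stand at the top right.

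Without antibody, 15 weeks against 4 weeks changed 3334 genes, 21.4% of those tested, with 1918 higher (12.3%) and 1416 lower (9.08%). These are called progression genes here. In the isotype comparison 337 of them (10.1%) were called in the same direction, and 0 in the opposite direction. That 10.1% depends on the libraries and the fit: it was 2.66% without isotype replicate 4, 5.55% to 7.52% without each of the other isotype libraries, 25% without 4-week replicate 3 and 15-week replicate 1, and 45.8% of 1206 genes where each comparison was fitted on its 2 groups alone. With all libraries the share was 12.1% of the progression genes that rose (233 of 1918) and 7.34% of those that fell (104 of 1416). At least a 2-fold change was seen in 507 progression genes, 3.25% of all genes tested. Of these, 132 of the 291 that rose held (45.4%), where the 291 are 1.87% of all genes, and 35 of the 216 that fell (16.2%), where the 216 are 1.38%. Of the 2997 progression genes not called with isotype, 2917 had a fold change of the same sign as without antibody. The 2 comparisons share the 10 libraries of 4 weeks, so a common direction is partly built in. The median log2 fold change of the progression genes that rose was 0.53 without antibody and 0.29 with isotype. For those that fell it was -0.57 and -0.38, while over all genes it was -0.01 and -0.02. The progression genes were selected on the no-antibody values, so these medians are a description and do not test whether the 2 comparisons differ. The median SE of a log2 fold change was 0.173 with isotype and 0.145 without antibody. The 337 genes make up 91.1% of the isotype calls, which leaves 33 called with isotype and not without antibody, 13 higher and 20 lower. Just inside the threshold lay Pdcd4 (adjusted p = 0.0499) and just outside it Erv3 (adjusted p = 0.0503).

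Genes for acute phase proteins and other plasma proteins were among the strongest rises. Fga and Fgg encode 2 of the chains of fibrinogen, the precursor of fibrin, and lie next to each other on chromosome 3 (GRCm38.p6). Promoter sequences are shown for these neighbours, for the acute phase gene Lrg1 and for the neutrophil chemokine gene Cxcl2, because all of them rose. Each run is the 250 bases before the annotated start, 5′ to 3′ on the gene's strand, from RefSeq GRCm38.p6: chr3:83007474-83007723 (+) for Fgg, chr3:83025903-83026152 (+) for Fga, chr17:56121947-56122196 (-) for Lrg1 and chr5:90903649-90903898 (+) for Cxcl2. Capitals mark matches on either strand to CTGGGAA (the core of the type II IL-6 response element), TTCNNNGAA (a STAT site) or GGNNNTTCC (a loose NF-kB-like motif).
Fgg: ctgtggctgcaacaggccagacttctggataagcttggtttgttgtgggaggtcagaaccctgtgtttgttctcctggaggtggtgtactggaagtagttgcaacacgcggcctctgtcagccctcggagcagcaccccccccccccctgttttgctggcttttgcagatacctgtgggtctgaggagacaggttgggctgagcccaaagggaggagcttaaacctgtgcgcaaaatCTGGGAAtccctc
Fga: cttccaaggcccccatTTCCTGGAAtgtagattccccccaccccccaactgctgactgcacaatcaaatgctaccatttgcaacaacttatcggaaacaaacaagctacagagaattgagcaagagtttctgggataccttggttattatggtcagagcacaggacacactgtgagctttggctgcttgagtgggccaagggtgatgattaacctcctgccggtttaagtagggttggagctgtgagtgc
Lrg1: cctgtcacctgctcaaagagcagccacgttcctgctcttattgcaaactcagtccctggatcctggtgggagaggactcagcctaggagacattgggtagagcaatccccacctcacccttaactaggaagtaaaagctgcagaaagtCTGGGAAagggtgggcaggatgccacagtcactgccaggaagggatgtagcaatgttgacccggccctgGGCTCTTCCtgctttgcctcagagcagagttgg
Cxcl2: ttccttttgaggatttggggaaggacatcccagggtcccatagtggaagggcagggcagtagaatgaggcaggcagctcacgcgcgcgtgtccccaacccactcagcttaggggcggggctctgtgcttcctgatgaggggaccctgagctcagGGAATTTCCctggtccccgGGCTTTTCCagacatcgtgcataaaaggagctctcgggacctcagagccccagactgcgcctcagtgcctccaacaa
The CTGGGAA match begins 13 bases before the start in Fgg and 102 bases before it in Lrg1, and the TTCNNNGAA match 234 bases before it in Fga. Cxcl2 holds GGNNNTTCC from 96 and from 77 bases before the start, and the first of these stretches matches on either strand. Lrg1 holds the same motif from 33 bases before its start. Among 32851 promoters of the same length, 9.1% hold CTGGGAA, 7.02% TTCNNNGAA and 15.7% GGNNNTTCC. The motifs and the genes shown were chosen after the expression values were seen, and a match is a description of the letters only.

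Fga measured 15.0, 17.1, 19.4 and 16.3 CPM in isotype replicates 1 to 4, against 0 to 2.13 CPM at 4 weeks (median 0.544). All 4 isotype libraries lay above all 10 of the 4-week libraries. The log2 fold change was 4.92 ± 0.67 (SE; adjusted p = 4.17e-05) with isotype and 4.98 ± 0.62 (adjusted p = 1.37e-06) without antibody. It was 6.86 within number range 1 and 3.73 within number range 2. Fgg measured 21.9, 22.2, 26.98 and 34.8 CPM with isotype against 0.298 to 5.90 CPM at 4 weeks (median 1.47), again without overlap. It rose by a log2 of 4.25 ± 0.55 with isotype (adjusted p = 2.5e-05) and 3.79 ± 0.50 without antibody (adjusted p = 3.67e-06). The gene for the remaining fibrinogen chain, Fgb, had 0 counts in all 14 libraries, where a count of 0 allows up to 3 counts, or 0.251 to 0.626 CPM depending on the library. Defining liver genes were near 0 as well: Alb had at most 8 counts in an isotype library and 4 at 4 weeks, Apoa2 at most 10 in either group, Apoa1 at most 1 and 2, and Ttr and Cyp3a11 had 0.

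Itih4, an inter-alpha-trypsin inhibitor chain of the acute phase, was abundant and rose strongly. Its levels were 1009, 986, 1120 and 1419 CPM with isotype, against 130 to 413 CPM at 4 weeks (median 230), with no overlap. The log2 fold change was 2.35 ± 0.36 (adjusted p = 0.000228), and 2.63 ± 0.33 without antibody. Hp, the haemoglobin-binding haptoglobin, stood at 731 to 1029 CPM with isotype and at a median of 343 CPM at 4 weeks, and rose by 1.17 ± 0.24 (adjusted p = 0.00518). Its only overlap was with 4-week replicate 3, at 835 CPM. Saa3, a serum amyloid A made locally in inflamed tissue, measured 413, 353, 515 and 299 CPM with isotype and 15.0 to 170 CPM at 4 weeks (median 55.4). The groups were separate and the log2 fold change was 2.73 ± 0.72 (adjusted p = 0.0311), but without any single isotype library the adjusted p went above the threshold, up to 0.0961. Lrg1, a leucine-rich glycoprotein of the acute phase, rose by 1.60 ± 0.41 (adjusted p = 0.0256), from a median of 247 CPM to between 478 and 758 CPM, and was called in 1 of the 4 sets that leave out an isotype library.

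The alpha-1-acid glycoprotein genes rose too. Orm2 rose by a log2 of 3.99 ± 0.89 (adjusted p = 0.00893), Orm1 by 2.76 ± 0.70 (adjusted p = 0.0244) and Orm3 by 4.28 ± 0.90 (adjusted p = 0.00474). Their counts are uncertain because these copies are nearly identical and reads may be divided among them. Isotype replicate 4 was the highest for each, with 18.3 CPM of Orm2 against 2.32 to 7.54 CPM in the other 3. The call for Orm3 ended without that library, where its log2 fold change was 1.87. Of the 4 sets that leave out an isotype library, Orm2 was called in 3 and Orm1 in 2. Fgl1, a fibrinogen-like liver protein, rose by 2.84 ± 0.51 (adjusted p = 0.00134) and Gc, the vitamin D-binding protein, by 2.95 ± 0.55 (adjusted p = 0.00193). Kng2, a kininogen, rose by 2.90 ± 0.56 (adjusted p = 0.00313), with 41.9 CPM in isotype replicate 1 and 8.05 to 12.5 CPM in the other 3. Of the 15 tested complement and acute phase genes on the list, 4 rose and 0 fell with isotype, against 1.58% of all genes higher and 0.795% lower. Those 4 were Itih4, Hp, Orm1 and Saa3. The list's median log2 fold change was 0.25, and 8 of its members rose without antibody, where 12.3% of all genes rose and 9.08% fell.

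**Figure D2:**
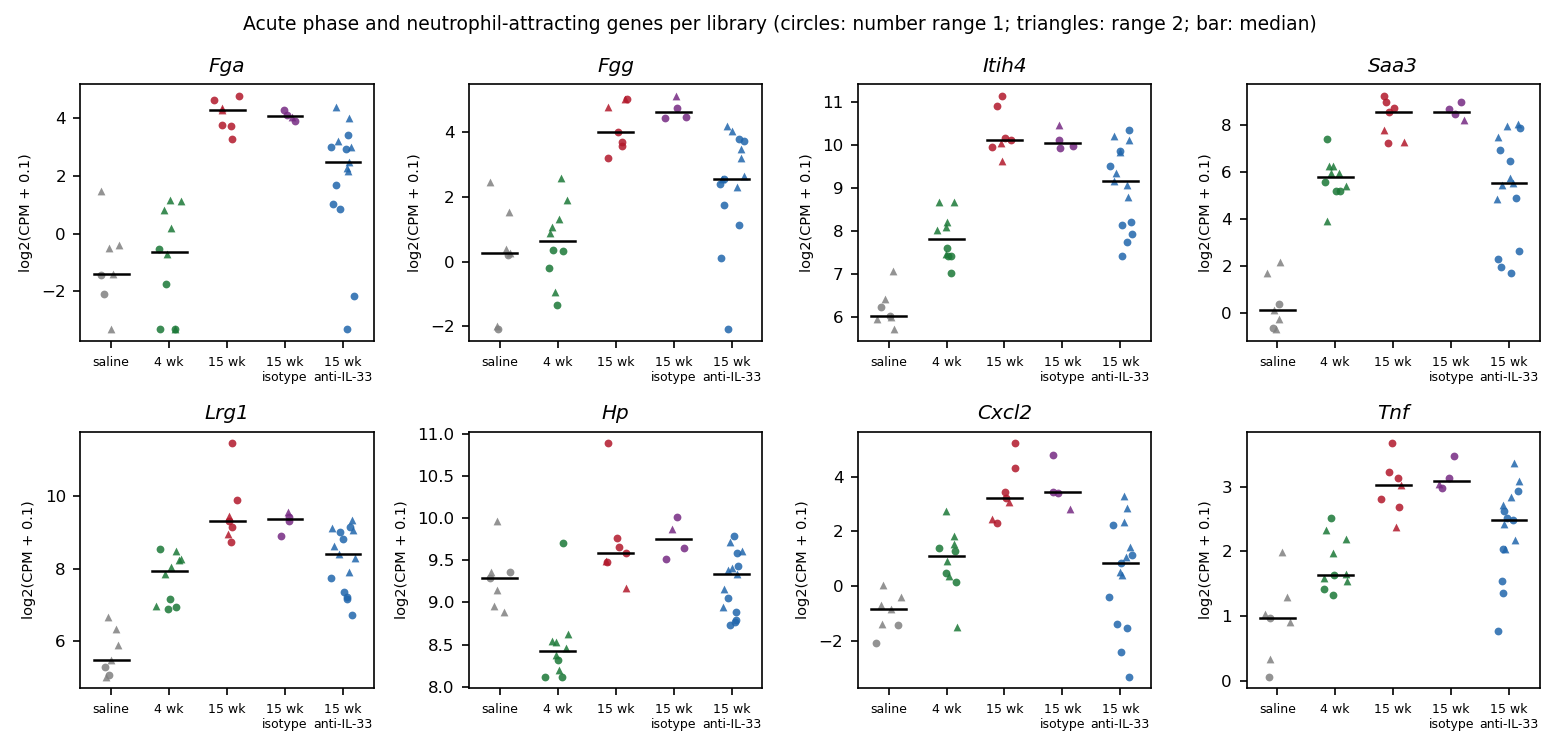
Each point is 1 library, plotted as log2(CPM + 0.1) for 8 genes, which are acute phase genes and the mediator genes Cxcl2 and Tnf. The 5 groups are shown with the bar at the group median, circles for number range 1 and triangles for number range 2. In Fga, Fgg, Itih4, Saa3, Lrg1, Cxcl2 and Tnf all 4 isotype libraries lie above all 10 of the 4-week libraries, and in Hp the 4-week library at 835 CPM overlaps them.

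Of 14 tested genes on a list of neutrophil-attracting and IL-17 and IL-1 family mediators, 6 rose and 0 fell with isotype. Over all genes 1.58% rose. Among the CXC chemokine genes of this list only Cxcl2 was called. The median log2 fold change of the 14 was 0.94, and 3 lay below 0. Without antibody 7 rose and 1 fell (median 0.88), where 12.3% of all genes rose and 9.08% fell. Cxcl2, a CXC chemokine that acts on neutrophils, measured 10.6, 10.8, 27.6 and 6.88 CPM with isotype against 0.257 to 6.64 CPM at 4 weeks (median 2.06). The groups did not overlap, though isotype replicate 4 lay close to the highest 4-week library. The log2 fold change was 2.91 ± 0.66 (adjusted p = 0.0102). Tnf, the central inflammatory cytokine, stood at 7.81, 8.66, 11.1 and 8.15 CPM against 2.41 to 5.64 CPM (median 3.01) and rose by 1.44 ± 0.30 (adjusted p = 0.00491). It remained called without any 1 of the isotype libraries. Il1a, an alarmin of the IL-1 family, rose by 1.46 ± 0.36 (adjusted p = 0.0202), and Il1b, its inflammasome-processed relative, by 0.97 ± 0.28 (adjusted p = 0.0469). Il1f9, the table's name for the cytokine IL-36 gamma, rose by 1.57 ± 0.40 (adjusted p = 0.022) and Lcn2, an iron-sequestering lipocalin, by 1.42 ± 0.41 (adjusted p = 0.0491). Lcn2 was highest in isotype replicate 4, at 3211 CPM against 1668 to 1806 CPM, and its call ended without any 1 of the isotype libraries. The CXC chemokines Cxcl1 (log2 fold change 0.94, adjusted p = 0.257) and Cxcl5 (0.64, adjusted p = 0.678) were not called, and Cxcl1 of 7.32 to 25.8 CPM overlapped its 4-week range of 5.07 to 13.9 CPM. The 3 members below 0 were the CXC chemokines Cxcl3 (-0.14, adjusted p = 0.935) and Ppbp (-0.36, adjusted p = 0.785) and the cytokine gene Il6 (-0.10, adjusted p = 0.96), none of them called. Cxcl3 and Il6 were above 0 when isotype replicate 2 or 4 was left out.

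Neutrophil markers moved in both directions. Of 12 tested, 3 rose and 1 fell with isotype (median 0.57), where 1.58% of all genes rose and 0.795% fell. Without antibody 5 rose and 1 fell (median 0.97), where 12.3% of all genes rose and 9.08% fell. Csf3r, the receptor for the neutrophil growth factor G-CSF, measured 69.4, 80.1, 93.1 and 89.0 CPM against 29.2 to 54.8 CPM at 4 weeks (median 38.4) and rose by 1.16 ± 0.24 (adjusted p = 0.00474). S100a8, a calprotectin subunit, rose by 1.33 ± 0.31 (adjusted p = 0.0129) and Mmp8, the neutrophil collagenase, by 1.37 ± 0.33 (adjusted p = 0.017). Retnlg, a resistin-like gene of neutrophils, fell by 1.22 ± 0.29 on the log2 scale (adjusted p = 0.0151), from a median of 69.0 CPM to between 19.4 and 56.5 CPM. In whole lung, fewer cells of a type and less RNA per cell cannot be told apart, and this holds for every marker named here.

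Several innate immune genes that rose were named after their values were seen, and no list of such genes was counted. Tlr2, a receptor for bacterial lipoproteins, measured 55.8, 51.1, 57.2 and 68.9 CPM with isotype and 17.6 to 32.5 CPM at 4 weeks (median 24.8). The groups were well apart, and it rose by 1.28 ± 0.18 (adjusted p = 7.54e-05). Nlrp3, the sensor of an inflammasome, measured 10.8, 11.7, 12.4 and 16.7 CPM against 3.30 to 7.66 CPM (median 4.55) and rose by 1.37 ± 0.21 (adjusted p = 0.000228). Clec4e, the lectin receptor Mincle, went from a median of 3.90 CPM to 20.8 to 37.8 CPM and rose by 2.80 ± 0.45 (adjusted p = 0.000342). Cxcr1, a chemokine receptor, rose by 2.86 ± 0.55 (adjusted p = 0.00308) and Cd14, the lipopolysaccharide co-receptor, by 1.08 ± 0.27 (adjusted p = 0.0201). Acod1, an enzyme that makes the antimicrobial metabolite itaconate, measured 17.2, 17.4, 50.2 and 19.4 CPM against 0.599 to 9.02 CPM (median 1.78). It rose by 3.45 ± 0.68 (adjusted p = 0.00362), and the high value was that of isotype replicate 3. Socs3, a feedback inhibitor of cytokine signalling, rose by 1.04 ± 0.24 (adjusted p = 0.0126), and Cd274, which encodes the checkpoint ligand PD-L1, by 1.04 ± 0.22 (adjusted p = 0.00525). Tlr2, Nlrp3, Clec4e, Acod1, Socs3 and Csf3r were called in all 4 sets that leave out an isotype library, and Cd274 in 3 of them.

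Of 14 tested alveolar macrophage markers 3 rose and 0 fell with isotype (median 0.53), where 1.58% of all genes rose, and 6 rose without antibody, where 12.3% did. Lpl, lipoprotein lipase, measured 640, 625, 605 and 742 CPM against 179 to 478 CPM at 4 weeks (median 283) and rose by 1.18 ± 0.26 (adjusted p = 0.00824). Mcemp1, a membrane protein of myeloid cells, rose by 1.48 ± 0.34 (adjusted p = 0.0118) and Plet1 by 1.43 ± 0.37 (adjusted p = 0.0273). None of these 3 calls was made without isotype replicate 4. Ly6c2, a marker of inflammatory monocytes, was the only called member of the list of 13 monocyte and interstitial macrophage markers. It rose by 1.22 ± 0.26 (adjusted p = 0.0061), while the median of that list was -0.19, with 8 members below 0 and 5 above. Ptgs1, the constitutive cyclooxygenase, rose by 0.92 ± 0.20 (adjusted p = 0.0061), and Hpgds, a prostaglandin D synthase, by 0.99 ± 0.18 (adjusted p = 0.00202). They were the 2 of 11 leukotriene and prostaglandin genes called.

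Of 24 matrix and remodelling genes 1 rose and 0 fell with isotype (median -0.07), where 1.58% of all genes rose, so that the count is near the share over all genes. Without antibody 6 rose and 1 fell (median 0.40), where 12.3% of all genes rose and 9.08% fell. Timp1, an inhibitor of matrix proteases, had 82.7, 68.5, 124 and 28.7 CPM against 21.4 to 103 CPM at 4 weeks and was not called (0.79, adjusted p = 0.528). Inhba and Inhbb, subunits of activins in the TGF-beta family, were the 2 of 14 TGF-beta and activin genes that rose. Inhbb measured 39.04, 49.1, 43.8 and 36.5 CPM against 15.5 to 24.5 CPM and rose by 0.97 ± 0.21 (adjusted p = 0.00598). Inhba rose by 1.96 ± 0.55 (adjusted p = 0.0444), highest in isotype replicate 3 at 64.3 CPM, and was not called without any 1 of the isotype libraries. Dnajb9, a chaperone of the endoplasmic reticulum, was the 1 of 14 protein folding genes that rose (0.55 ± 0.13, adjusted p = 0.0134), although all 14 had a positive fold change. Xbp1, a transcription factor of secretory cells, was the 1 of 10 plasma cell genes that rose (0.69 ± 0.18, adjusted p = 0.0244). Jchain, the joining chain of secreted antibodies, had 2379 to 7378 CPM against 973 to 4834 CPM at 4 weeks and was not called (0.94, adjusted p = 0.402).

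Of 17 tested genes of type 2 inflammation, 3 fell and 1 rose with isotype (median -0.67, with 5 above 0), where 0.795% of all genes fell and 1.58% rose. Without antibody 9 fell and 2 rose (median -0.83), where 9.08% of all genes fell and 12.3% rose. Ccl24, the eosinophil-attracting chemokine eotaxin-2, measured 5.50, 2.68, 11.8 and 0.491 CPM with isotype and 7.52 to 76.0 CPM at 4 weeks (median 47.3). Isotype replicate 3 lay within the lowest part of the 4-week range and the other 3 below all of it. Ccl24 fell by 3.32 ± 0.66 on the log2 scale (adjusted p = 0.00376) and by 2.87 ± 0.50 without antibody (adjusted p = 0.000131). It fell by 2.94 within number range 1 and by 6.27 within range 2, where the isotype library is the lowest. Ccr3, the eotaxin receptor of eosinophils, had 4.22, 4.39, 14.2 and 1.87 CPM against 7.97 to 32.2 CPM (median 17.9). It fell by 1.90 ± 0.48 (adjusted p = 0.022), and was called in 1 of the 4 sets that leave out an isotype library. Ccr3 was also the 1 of 8 tested eosinophil markers that was called. The median of those markers was -0.33, and 2 of them, the eosinophil ribonuclease genes Ear1 (0.48, adjusted p = 0.684) and Ear6 (1.47, adjusted p = 0.278), lay above 0. Counts of the Ear genes are uncertain because they are close copies of each other. Gata3, the transcription factor of type 2 lymphocytes, measured 16.5, 12.7, 17.8 and 11.9 CPM against 16.3 to 70.8 CPM (median 25.2), where the highest value is that of 4-week replicate 3. It fell by 1.09 ± 0.22 (adjusted p = 0.00474) and remained called without any 1 of the isotype libraries. Il13ra1, a receptor chain for IL-13, was the member that rose (0.55 ± 0.14, adjusted p = 0.0281).

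The cytokine genes themselves were low and were not called with isotype. Il13, the cytokine that drives mucus, measured 2.18, 1.95, 3.16 and 0.982 CPM against 2.39 to 9.94 CPM at 4 weeks (median 5.28). Only replicate 3 reached into the 4-week range, and the log2 fold change was -1.40 ± 0.55 (adjusted p = 0.173), against -1.57 ± 0.45 (adjusted p = 0.0109) without antibody. Il4 had -1.69 (adjusted p = 0.0503) and Il5, which supports eosinophils, -0.94 (adjusted p = 0.392). Il33, the alarmin that was humanised here, measured 619, 537, 832 and 454 CPM against 210 to 522 CPM (median 364), with 3 of the 4 isotype libraries above all of the 4-week libraries. Its log2 fold change was 0.92 ± 0.39 (adjusted p = 0.227), and how much of the humanised gene the counts can capture was not stated in the labels. Il1rl1, its receptor ST2, had -0.57 (adjusted p = 0.33). The eosinophil chemokine gene Ccl11 had -0.55 (adjusted p = 0.595) and Arg1, arginase of alternatively activated macrophages, 0.23 (adjusted p = 0.926). None of 14 tested goblet cell and mucus genes was called, with a median of -0.91 and 13 of 14 below 0. Clca1, a secreted mucus regulator, measured 272, 605, 582 and 247 CPM with isotype, all below the 4-week range of 813 to 2123 CPM. Its log2 fold change of -1.76 had an SE of 0.97 (adjusted p = 0.39), and Muc5ac, an airway mucin, had -1.51 (adjusted p = 0.146).

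Alternatively activated macrophages were represented by 15 genes, of which 2, Ccl24 and Pdcd1lg2, fell with isotype and 0 rose. Over all genes 0.795% fell and 1.58% rose. The median of the 15 was -0.09, with 7 above 0 and 8 below. Without antibody 4 fell and 1 rose, where 9.08% of all genes fell and 12.3% rose. Pdcd1lg2, which encodes the checkpoint ligand PD-L2, measured 5.25, 5.98, 9.48 and 8.64 CPM against 13.7 to 25.96 CPM at 4 weeks (median 19.8). The groups were separate, and it fell by 1.35 ± 0.24 (adjusted p = 0.00134), next to the rise of Cd274 given above. Chia1, an acidic chitinase that breaks down the chitin of mites, measured 369, 248, 362 and 40.6 CPM against 318 to 2385 CPM at 4 weeks (median 1085). Replicates 1 and 3 overlapped the lowest 4-week library, and replicate 4 was far below the others. Chia1 fell by 2.39 ± 0.50 (adjusted p = 0.00525) and by 2.11 ± 0.39 without antibody (adjusted p = 0.000214). Batf3, a transcription factor of conventional dendritic cells, measured 4.48, 4.02, 6.08 and 3.44 CPM against 6.20 to 20.99 CPM and fell by 1.27 ± 0.23 (adjusted p = 0.00134). Ccr7, which guides dendritic and T cells to lymph nodes, fell by 0.54 ± 0.15 (adjusted p = 0.0436). They were the 2 of 12 dendritic cell markers called. The median of the 12 was -0.14, and 5 of them lay above 0.

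**Figure D3:**
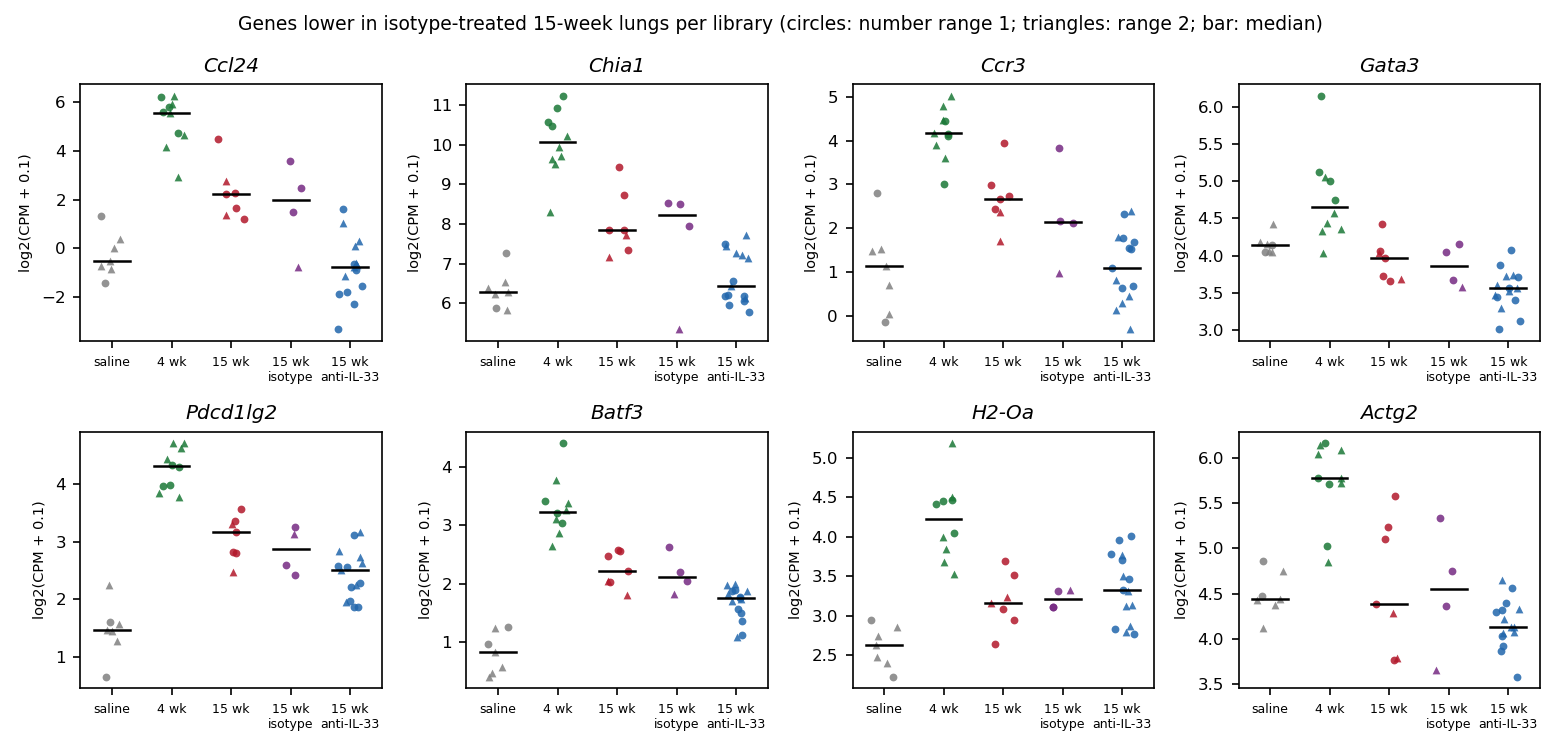
Each point is 1 library, plotted as log2(CPM + 0.1) for 8 genes that fell in the isotype comparison, in the 5 groups, with the bar at the group median and circles and triangles for number ranges 1 and 2. Pdcd1lg2, Batf3 and H2-Oa show no overlap between the isotype and 4-week libraries, and in Ccl24, Chia1 and Ccr3 the isotype library of range 2 is the lowest.

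The called members of the MHC class II, B cell and T cell lists all fell. Of 10 MHC class II presentation genes 3 fell and 0 rose (median -0.40), where 0.795% of all genes fell, and 4 fell without antibody, where 9.08% did. H2-Oa and H2-Ob encode the DO heterodimer, which restrains peptide loading. H2-Oa measured 9.86, 8.54, 8.51 and 9.92 CPM against 11.5 to 36.2 CPM (median 18.8) and fell by 1.12 ± 0.24 (adjusted p = 0.00699). H2-Ob fell by 0.91 ± 0.24 (adjusted p = 0.0292) and H2-Eb1, a chain of the antigen-presenting molecule, by 0.64 ± 0.18 (adjusted p = 0.0405). The calls for H2-Ob and H2-Eb1 ended without any 1 of the isotype libraries. Pax5, the B cell master regulator, was the 1 of 10 B cell markers that fell (-1.21 ± 0.35, adjusted p = 0.0471). Icos, a T cell costimulator, was the 1 of 15 T cell markers that fell (-0.64 ± 0.17, adjusted p = 0.0371), and Zap70, a T cell receptor kinase outside the list, fell by 0.74 ± 0.21 (adjusted p = 0.0491). Aurkb, a mitotic kinase, fell by 0.93 ± 0.21 (adjusted p = 0.012) and was the 1 of 19 proliferation genes called.

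Of 8 contractile genes of smooth muscle 2 fell and 0 rose with isotype (median -0.71), where 0.795% of all genes fell, and 7 fell without antibody, where 9.08% did. Actg2, a smooth muscle actin, measured 40.3, 20.5, 26.9 and 12.57 CPM against 28.9 to 71.3 CPM (median 54.8) and fell by 1.22 ± 0.27 (adjusted p = 0.00889). Tagln, an actin-binding protein, had 257, 162, 152 and 70.9 CPM against 167 to 461 CPM and fell by 0.89 ± 0.22 (adjusted p = 0.0206). Isotype replicate 4 was the lowest for both, and neither was called without it. Of the 4 sets that leave out an isotype library, Actg2 was called in 3 and Tagln in 1. Of 11 genes of heart muscle, which in mice also surrounds the pulmonary veins, 2 fell and 0 rose. Actc1, cardiac actin, fell by 1.06 ± 0.25 (adjusted p = 0.0121), with isotype at 44 to 66.6 CPM and 4 weeks at 68.2 to 163 CPM. Myh7, a cardiac myosin, fell by 2.501 ± 0.668 (adjusted p = 0.033) and had -0.10 (adjusted p = 0.904) without antibody. The summed level of the 11 cardiac genes was 133 to 239 CPM with isotype and 257 to 585 CPM at 4 weeks, and its part in the smooth muscle values was not tested. Of 12 markers of type I alveolar cells Igfbp2 fell (-0.96 ± 0.23, adjusted p = 0.0162), while Ager had -0.51 (adjusted p = 0.241) and the type II marker Sftpc 0.18 (adjusted p = 0.748).

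Further genes with large changes lay outside these groups. Nfasc, an adhesion molecule best known in neurons, measured 19.2, 18.9, 17.9 and 20.6 CPM with isotype against 0.599 to 2.98 CPM at 4 weeks (median 1.59). The groups were far apart, with a rise of 3.46 ± 0.57 (adjusted p = 0.000453) that was 3.56 in number range 1 and 3.45 in range 2. Card14, a scaffold of NF-kB signalling in epithelium, rose by 3.49 ± 0.84 (adjusted p = 0.0134), from at most 0.642 CPM to between 1.58 and 3.04 CPM. Cd200r2, of the CD200 receptor family, rose by 3.20 ± 0.65 (adjusted p = 0.00464). Dmbt1, a secreted mucosal scavenger protein, rose by 3.26 ± 0.75 (adjusted p = 0.012), with 34.9 CPM in isotype replicate 4 and 2.68 to 5.96 CPM in the other 3. It was called in 3 of the 4 sets that leave out an isotype library, as were Card14 and Cd200r2. Bmp8a, a bone morphogenetic protein, was called (4.18 ± 1.11, adjusted p = 0.0258) through isotype replicate 4 at 10.6 CPM. The other 3 held 0.128 to 0.486 CPM, inside the 4-week range of 0 to 0.583 CPM, and the call ended without replicate 4.

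Ctnnd2, delta-catenin of cell junctions, had the smallest p among the falls. It measured 4.22, 4.02, 4.01 and 1.57 CPM with isotype against 6.80 to 19.3 CPM at 4 weeks (median 11.02), with no overlap, and fell by 1.89 ± 0.28 (adjusted p = 0.000105). Without antibody it fell by 0.77 ± 0.21 (adjusted p = 0.00634). Mrgprg, a Mas-related receptor, fell by 2.49 ± 0.61 (adjusted p = 0.016), Pla2g4c, a phospholipase, by 1.83 ± 0.46 (adjusted p = 0.0202), Il31ra, a chain of the IL-31 receptor, by 1.59 ± 0.39 (adjusted p = 0.0194) and Tnn, a tenascin, by 1.71 ± 0.47 (adjusted p = 0.0364). Of the 4 sets that leave out an isotype library, Mrgprg and Pla2g4c were called in 1 each, Il31ra in 2 and Tnn in 0. Ifi202b, an interferon-inducible DNA sensor, was called lower (adjusted p = 0.00525), but only 3 of the 10 libraries of 4 weeks, replicates 1, 2 and 4, held more than 1 CPM of it, at 7.19 to 12.7 CPM. The 4 isotype libraries held 1 count in all against 297 at 4 weeks, a ratio per total count of 108 with a 95% exact (Clopper-Pearson) interval from 19.2 to 4280 that covers counting error only.

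The isotype and no-antibody groups at 15 weeks were also compared directly, since a call in one comparison and not in the other does not show a difference between them. No gene was called by edgeR (0.00% of those tested), with 933 at an unadjusted p under 0.05 and a smallest adjusted p of 0.0514. DESeq2 called 8 and limma-voom 0. Among the immune cell lists the largest median difference was in NK and cytotoxic genes, at 0.83. Without antibody, 13 of 14 such genes fell from 4 to 15 weeks (median -0.98), where 9.08% of all genes fell. With isotype 0 of 14 were called against 4 weeks (median -0.17, lowest adjusted p = 0.615). Directly compared, all 14 were higher with isotype than without antibody, by a log2 of 0.14 to 1.76, where the median over all genes was -0.025. An unadjusted p under 0.05 was found for 8 of them and for 933 of all 15598 genes, with none called. The list was singled out by its median in this same comparison and its members are not independent, so these counts are a description only.

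Gzma, a granzyme of cytotoxic lymphocytes, measured 10.5, 13.7, 20.1 and 13.9 CPM with isotype, 3.72 to 6.55 CPM at 15 weeks without antibody (median 5.14) and 6.88 to 49.2 CPM at 4 weeks (median 14.8). The isotype libraries lay above all 7 without antibody and inside the 4-week range. The log2 fold change was -0.36 ± 0.29 (adjusted p = 0.619) against 4 weeks, -1.87 ± 0.26 (adjusted p = 8.67e-06) without antibody, and 1.51 between the 2 groups at 15 weeks (adjusted p = 0.0531). Gzmb, another granzyme, measured 1.02, 3.29, 4.98 and 5.21 CPM with isotype and 0.627 to 1.68 CPM without antibody, with replicate 1 inside that range, and a difference of 1.55 (adjusted p = 0.0962). Ncr1, the NK receptor NKp46, measured 1.41, 2.81, 3.40 and 4.32 CPM against 0.112 to 1.52 CPM, with a difference of 1.70 (adjusted p = 0.137). Prf1, the pore-forming perforin, differed by 0.57 (adjusted p = 0.798). For 2 of the 14 NK genes all isotype libraries lay above all libraries without antibody, as they did for 32 genes overall (0.205%).

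**Figure D4:**
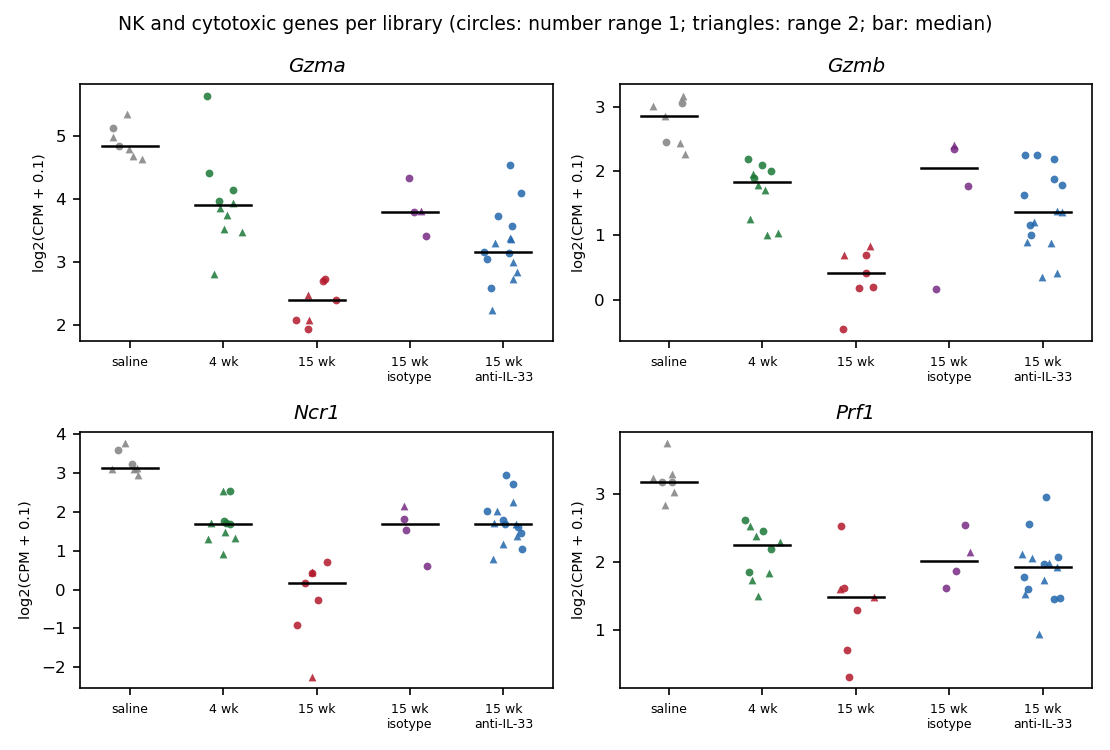
Each point is 1 library, plotted as log2(CPM + 0.1) for 4 NK and cytotoxic genes in the 5 groups, with the bar at the group median and circles and triangles for number ranges 1 and 2. The 4 isotype libraries of Gzma, from 10.5 to 20.1 CPM, lie above the 7 without antibody and within the spread of the 4-week libraries.

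Other progression genes not called with isotype that were among the 5 with the smallest p between isotype and no antibody, under the limits of the naming rule, were Nt5dc3 (-0.02 with isotype and 0.33 without antibody) and Ublcp1 (-0.01 and -0.39). Among the 33 genes called with isotype and not without antibody, Ccn1, a matricellular protein, measured 63.0, 38.2, 45.1 and 65.0 CPM with isotype, 99.1 to 166 CPM at 4 weeks and 59.9 to 244 CPM at 15 weeks without antibody. All 4 isotype libraries lay below all of the 4-week libraries, and Ccn1 fell by 1.22 ± 0.28 (adjusted p = 0.0115), against 0.23 ± 0.22 (adjusted p = 0.468) without antibody. The direct difference at 15 weeks was -1.45 (adjusted p = 0.0514). Its relative Ccn2 fell by 0.74 ± 0.20 (adjusted p = 0.0354), with -0.10 (adjusted p = 0.683) without antibody. Zfp457, a zinc finger gene, and Olfr856-ps1, an olfactory receptor pseudogene, were called higher through isotype replicate 2 alone, with 21.8 CPM against at most 0.982 CPM and 114 CPM against at most 16.8 CPM in the other 3. Without that library their log2 fold changes were -0.22 and -0.02.

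**Figure D5:**
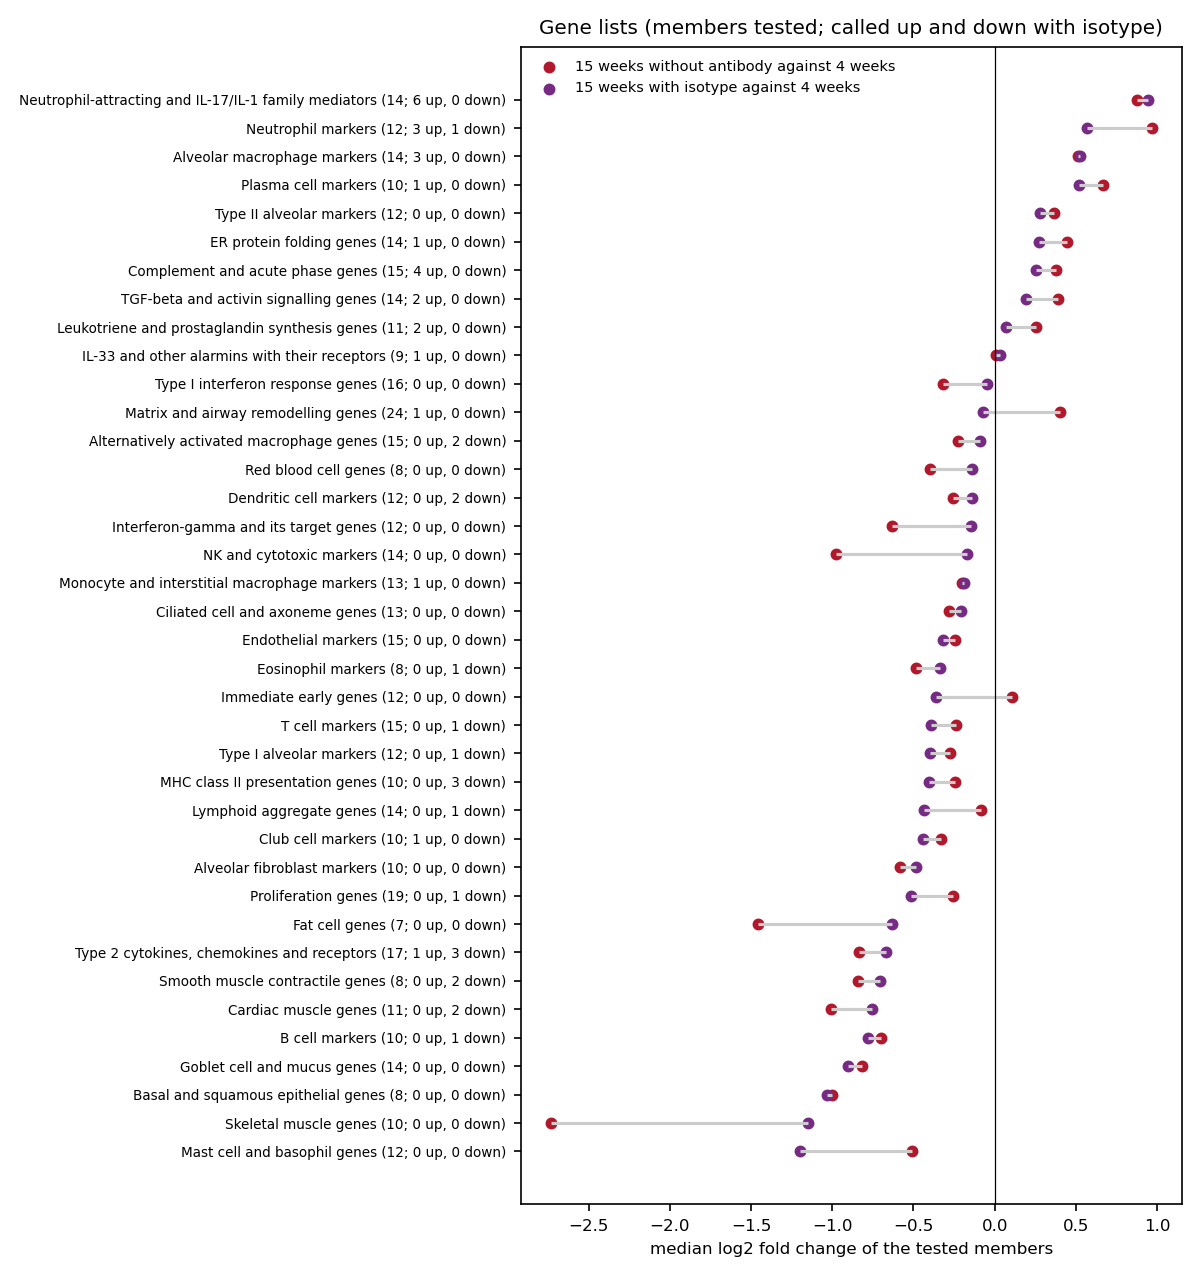
Each row is a gene list, with the median log2 fold change of its tested members against 4 weeks on the x axis, purple with isotype and red without antibody, and the number tested and called with isotype in brackets. The list of neutrophil-attracting and IL-17 and IL-1 family mediators is the highest with isotype at 0.94. The 2 medians of the NK and cytotoxic list lie at -0.17 and -0.98.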

How the data were processed

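Per the labels' protocols, total RNA of lung was made into libraries with a stranded mRNA kit. Per the submitters' processing notes the build was GRCm38, with aligner and counter not given in the sources used here. Values deposited by the authors are raw read counts per Entrez ID, as whole numbers that were not normalized. Of 24475 IDs, 24375 were matched to RefSeq GRCm38.p6 names, and the 100 others held 2.62% of counts and stayed in the totals. No library pair was identical.

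TMM scaling, filterByExpr and 1 robust quasi-likelihood fit of all 43 libraries were run in edgeR 4.0.16 (R 4.3.3), with terms for group and number range, which left 15598 genes and 37 residual degrees of freedom. The SE is the log2 fold change over the square root of F. CPM are TMM-scaled, and plots add 0.1 CPM. DESeq2 1.42.0, limma 3.58.1, other scalings, filters, GC and length correction, a test against a 1.2-fold change and sets without libraries were alternatives. Python 3.11.15 and matplotlib 3.10.9 made the figures.

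Members, gene lists and the naming rule were chosen with earlier results of these data known. The rule took the 10 largest rises and 10 largest falls with at least 2 CPM in the higher group, without predicted, clone-named and immune receptor segment genes, up to 3 called members a list, 17 fixed names and 10 genes that separate the isotype and no-antibody results. A few genes that the rule took are not reported here. Kng2, Fgl1, Gc, Lrg1, Il1b, Il1f9, Lcn2, Mmp8, Cxcr1, Clec4e, Cd14, Tlr2, Nlrp3, Socs3, Cd274, Il13ra1, Il4, Prf1, Zap70, Ccn2, Cxcl3, Ppbp, Il6, Ear1 and Ear6 were added after their values were seen. On simulated data for isotype against 4 weeks (15466 genes), 41.8% of 1.5-fold, 85.1% of 2-fold and 93.9% of 4-fold changes were recovered, and 5.16% of calls were false. The changed genes were drawn only from those above a minimum mean CPM, so recovery at lower levels was not measured. Simulated counts held no library set apart from its group.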

Additional observations from a re-analysis of the deposited data

Results flagged for a closer look

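Among 202 sets of values (101 named genes in the isotype and the 4-week group), 35 had a highest or lowest library farther from its nearest neighbour, relative to the group's range, than Dixon's 95% critical value. Chance flags about 1 in 20 groups, and genes of one library are not independent.

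Of the isotype libraries, replicate 4 was highest for Bmp8a (10.6 CPM, next 0.486), Dmbt1 (34.9, next 5.96), Lcn2 (3210, next 1810) and Orm3 (8.45, next 0.972), and lowest for Ctnnd2 (1.57, next 4.01). Replicate 3 was highest for Acod1 (50.2, next 19.3), Ear1 (4.74, next 3.2) and Inhba (64.3, next 35.2) and lowest for Igfbp2 (39.1, next 62.7). Replicate 2 was highest for Zfp457 (21.8, next 0.982), Olfr856-ps1 (114, next 16.8) and Ifi202b (0.122, where the others were at 0). Replicate 1 was highest for Kng2 (41.9, next 12.5).

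At 4 weeks most of these values were in replicate 3, the library that stands apart. It was highest for Ager (2250 CPM, next 1020), Batf3 (21, next 13.7), Bmp8a (0.583, next 0.258), Ccl11 (163, next 107), Cxcl3 (13.2, next 7.59), Gata3 (70.8, next 34.8), Gzma (49.2, next 21.2), Hp (835, next 396), Igfbp2 (224, next 125), Mcemp1 (39.8, next 16.8), Ppbp (14.4, next 7.19), S100a8 (79.1, next 40.4), Saa3 (170, next 77.9), Sftpc (28900, next 14600) and Tagln (461, next 301), and lowest for Inhbb (15.5, next 20.4). Replicate 6 was highest for H2-Oa (36.2, next 22.5) and H2-Ob (135, next 86.1), replicate 1 for Tnn (27.3, next 8.52), replicate 5 for Cxcl2 (6.64, next 3.46), replicate 7 for Dmbt1 (3.39, next 1.84) and replicate 10 for Orm2 (2.11, next 0.778).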

How the results depend on the processing

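No paired analysis was possible because the labels carry no replicate numbers. Values below are, in order, the calls of isotype against 4 weeks (370), the progression genes held (337), the calls without antibody against 4 weeks (3334) and those of isotype against no antibody (0). Only the 2 groups compared gave 698, 552, 1206 and 0. Number range 1 alone gave 1, 1, 1406 and 0, and range 2 alone 192, 74, 149 and 1. DESeq2 gave 599, 527, 3714 and 8, with 55.4% of the isotype calls higher against 66.5% in edgeR. A test against a 1.2-fold change gave 130, 120, 1029 and 0, and correction for GC content and length 778, 704, 4049 and 0. Without 4-week replicate 3 and 15-week replicate 1 the values were 852, 682, 2733 and 1, and with number range 1 alone without these, an alternative chosen after seeing the data, 10, 10, 489 and 0. Upper quartile scaling, no filter and no number range term gave 5, 7 and 4 calls of isotype against no antibody. Leaving out an isotype library in turn gave 97 to 268 calls of isotype against 4 weeks, 85 to 247 held genes and 0 to 11 calls of isotype against no antibody. The lowest of the first 2 ranges were without replicate 4. The cause of these changes was not tested, except that single ranges and left-out libraries hold fewer samples.

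Of the 75 named genes called with isotype, those called and tested kept their direction in each alternative except Zfp457 (-0.22) and Olfr856-ps1 (-0.02) without isotype replicate 2, where Zfp457 was also -0.11 against no antibody (up to 3.39 without another library). The other reversals were in genes not called. Range 2 alone turned Arg1 (-1.26), Gzma (0.21), Jchain (-0.04), Ncr1 (0.52), Ppbp (0.05), Prf1 (0.06) and Timp1 (-0.56). Gzmb was -0.39 in range 1 alone and -0.14 by limma-voom, and -0.40 in range 1 without the 2 libraries, where Cxcl5 was -0.02 and Il6 0.08. Without these 2 libraries alone Cxcl3 was 0.14 and Il6 0.01. With an isotype library left out, Arg1 ranged from -0.35 to 0.58, Gzmb from -0.31 to 0.42, Ncr1 from -0.60 to 0.03, Cxcl3 from -0.60 to 0.06, Il6 from -0.30 to 0.06, Nt5dc3 from -0.07 to 0.05 and Ublcp1 from -0.06 to 0.04, and Zfp457 from -0.22 to 3.27 and Olfr856-ps1 from -0.02 to 1.71. Nt5dc3 was 0.01 with only the 2 groups, 0.04 in range 1 alone and 0.03 in range 1 without the 2 libraries. Ublcp1 was 0.01 with no number range term and 0.00 after the GC and length correction.

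At these depths 3 counts correspond to 0.251 to 0.626 CPM, and a level under that cannot be told from 0. Of the simulated 1.5-fold changes 41.8% were recovered, which was not split by expression level. Those changes were placed only in genes above a minimum mean CPM, so genes of lower level were not covered.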
